A study of Mus musculus with 12 samples.

Results

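Transcript levels of the VEGF and angiopoietin ligands and receptors were examined in colons of mice lacking thrombospondin-1 (TSP-1), an extracellular matrix glycoprotein that inhibits blood vessel growth. The set held 10 genes: the ligands Vegfa, Vegfb, Vegfc and Pgf, the VEGF receptors Flt1, Kdr and Flt4, the angiopoietins Angpt1 and Angpt2, and the angiopoietin receptor Tek. Each gene was taken from the probes of the array that carry its symbol alone, and each had exactly 1 such probe, so 10 of 28853 probes were used. The 4 groups held 3 mice each and 1 array per mouse. They were TSP-1-/- mice given azoxymethane and dextran sodium sulfate (TSP-1-/- AOM/DSS), WT mice given the same (WT AOM/DSS), TSP-1-/- mice that drank water, and WT mice that drank water. All mice were of the C57BL/6 strain, and the study's methods give male mice, 7 weeks old when DSS began. AOM is a colon carcinogen, and DSS damages the lining of the colon when mice drink it. Treatment consisted of 1 dose of AOM at 10 mg/kg and 1.5% DSS in 4 cycles, each of 7 days, and tissue was taken 15 weeks after the AOM dose. The methods place the injection 1 week before the first cycle, whereas the sample labels place it on the first day of DSS. Both genotypes of a pair shared the same treatment.

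The methods name normal and diseased colonic tissue as the source of the RNA, so an array averages all cell types of the piece taken. Values are log2 signals relative to a baseline of each probe, and a value of 0 therefore means the baseline and not absence. Levels cannot be compared between genes on this scale, and whether a colon marker was present at all could not be read from it. The methods describe the baseline as the median of the 12 samples. The group means of the AOM/DSS arrays matched means that the authors tabulated, and those of the water arrays did not. The labels of the water arrays also carry the protocol of another DSS experiment. AOM/DSS arrays were therefore never tested against water arrays, and the genotypes were compared within each set. TSP-1-/- AOM/DSS replicate 3 stood apart from the other arrays, with an SD of 0.753 over all probes, whereas the others ranged between 0.293 and 0.453. The transcript of the targeted gene did not check the genotype labels: Thbs1 (probe 10474700), which encodes TSP-1, measured 0.81, 0.85 and 0.93 in TSP-1-/- AOM/DSS colons, against 0.27, -0.16 and -0.07 in WT AOM/DSS colons. On the water arrays it was -0.0015, -0.96 and -1.15 in TSP-1-/- colons and -1.36, -0.99 and -0.47 in WT colons. The array thus showed no loss of this transcript in either set. The mice carry a mutated gene that yields no protein, according to the study, and whether the probe reads the altered part of that gene was not given in the sources used here.

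Vascular endothelial growth factors are secreted proteins that bind tyrosine kinase receptors on endothelial cells. VEGF-A, made by many cell types including epithelium and macrophages, drives the growth and permeability of blood vessels mainly through the receptor encoded by Kdr, and VEGF-C drives the growth of lymphatic vessels through the receptor encoded by Flt4. Angiopoietins act later on the same vessels: angiopoietin-1 activates the receptor encoded by Tek and stabilizes vessels, and angiopoietin-2 often opposes it and loosens them. TSP-1 inhibits endothelial cells through the receptors CD36 and CD47 and can bind VEGF-A.

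Promoters were available for 8 of the 10 genes. Those of Vegfa, Vegfb, Flt4 and Tek are shown because these were the genes whose AOM/DSS arrays separated by genotype under every scaling tried. The sequences are from RefSeq, build GRCm38.p6, and cover 250 bases before and 50 bases after the transcription start, read 5′ to 3′ on the gene's strand. Capitals mark GC boxes, the motif GGGCGG on either strand.
Vegfa, chr17:46032328-46032627, minus strand: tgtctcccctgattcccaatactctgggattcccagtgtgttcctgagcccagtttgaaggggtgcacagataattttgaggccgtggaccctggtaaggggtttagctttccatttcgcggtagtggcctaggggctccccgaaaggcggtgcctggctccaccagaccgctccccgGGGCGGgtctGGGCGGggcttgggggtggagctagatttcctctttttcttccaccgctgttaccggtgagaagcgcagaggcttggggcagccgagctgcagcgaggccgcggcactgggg
Vegfb, chr19:6987602-6987901, minus strand: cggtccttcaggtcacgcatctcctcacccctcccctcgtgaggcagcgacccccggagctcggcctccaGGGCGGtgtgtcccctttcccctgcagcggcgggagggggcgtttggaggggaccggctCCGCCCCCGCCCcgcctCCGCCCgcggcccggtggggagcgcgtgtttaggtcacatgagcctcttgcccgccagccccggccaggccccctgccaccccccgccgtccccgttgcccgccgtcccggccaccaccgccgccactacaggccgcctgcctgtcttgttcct
Flt4, chr11:49609429-49609728, plus strand: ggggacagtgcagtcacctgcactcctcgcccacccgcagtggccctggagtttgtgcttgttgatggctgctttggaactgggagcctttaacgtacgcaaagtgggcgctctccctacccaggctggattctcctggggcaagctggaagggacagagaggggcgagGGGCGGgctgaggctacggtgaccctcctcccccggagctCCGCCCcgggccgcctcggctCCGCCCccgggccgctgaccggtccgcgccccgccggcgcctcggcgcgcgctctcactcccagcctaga
Tek, chr4:94739039-94739338, plus strand: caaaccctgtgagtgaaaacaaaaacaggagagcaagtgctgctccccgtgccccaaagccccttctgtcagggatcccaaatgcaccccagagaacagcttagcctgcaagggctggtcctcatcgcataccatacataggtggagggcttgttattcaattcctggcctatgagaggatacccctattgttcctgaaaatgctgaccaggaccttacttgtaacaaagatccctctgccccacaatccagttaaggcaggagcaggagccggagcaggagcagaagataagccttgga

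In these windows Vegfa held 2 GC boxes, Vegfb 4, Flt4 3 and Tek 0. Among the genes not printed, Vegfc held 2, Kdr 2, Flt1 3 and Pgf 2 at its first start and 0 at its second. The motif was present in 35.7% of 32851 mouse promoters of the same length. The core of the hypoxia response element, ACGTG on either strand, was found in none of the 4 printed windows and in 1 member window, that of the second annotated start of Vegfa (chr17:46025114-46025413, minus strand), against 19.6% of all promoters. The ETS core CCGGAA, the letters read by a family of factors that act in endothelial cells, was found once in the Kdr window (chr5:75978406-75978705, minus strand) and in no other member window, against 14.9% of all promoters. These are letter matches and were not measured as bound sites. Angpt1 and Angpt2 had no entry in the promoter table used.

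Between the treated genotypes, the VEGF ligands Vegfa and Vegfb were measured at lower levels in TSP-1-/- colons and the receptors Flt1, Kdr, Flt4 and Tek at higher levels. On the scale as deposited, the 3 TSP-1-/- AOM/DSS arrays did not overlap with the 3 WT AOM/DSS arrays in any of these 6 genes, and Flt1 and Kdr overlapped under each other scaling tried. None of the 10 genes passed the test. A call required 2 things, a limma p below 0.05 after Benjamini-Hochberg adjustment over all probes and a difference of 2-fold or more. By that rule 0 of 10 genes were called, against 2.78% of all probes (1.73% higher and 1.05% lower in TSP-1-/-). By the adjusted p alone it was also 0 of 10 genes, against 8.3% of all probes. The adjusted p of the 10 genes ran from 0.0538 to 0.800, and 4 of them (Vegfa, Vegfb, Flt4 and Angpt2) had an unadjusted p under 0.05 in limma, against 32.3% of all probes. Non-overlap was common in this comparison: 4 of the 10 genes were higher without overlap, against 20.2% of all probes, and 2 were lower, against 10.7% of all probes (30.8% in either direction). The median log2 difference of the 10 genes, TSP-1-/- minus WT, was 0.36, and that of all probes 0.13. In whole tissue, fewer cells of a type and less RNA per cell cannot be told apart.

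**Figure D1:**
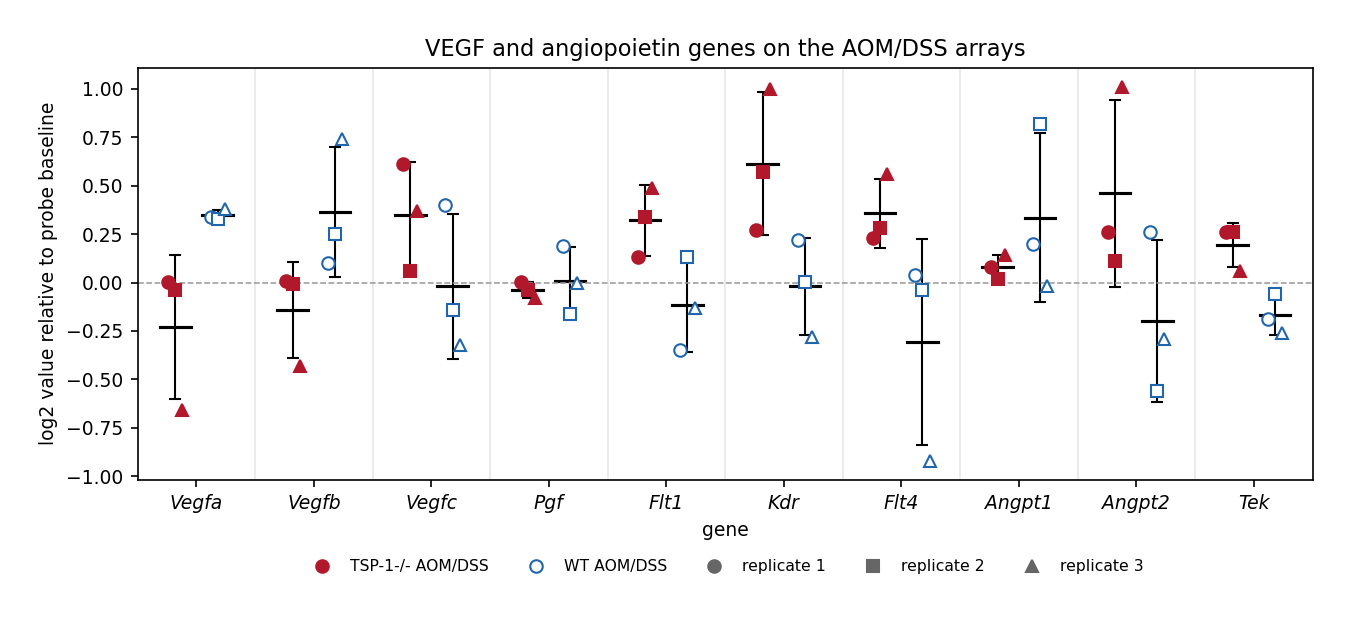
Log2 value relative to the probe's baseline for the 10 genes on the AOM/DSS arrays, with TSP-1-/- in filled red and WT in open blue symbols; the symbol shape gives the replicate number, and bars give the mean and SD of 3 arrays. Vegfa and Vegfb lay lower, and Flt1, Kdr, Flt4 and Tek higher, on every TSP-1-/- array than on every WT array on the scale as deposited; Flt1 and Kdr overlapped under the other scalings.

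Among the ligands, Vegfa (probe 10451198), the main growth factor for blood vessels, measured 0.0041, -0.04 and -0.66 in TSP-1-/- AOM/DSS colons, against 0.34, 0.33 and 0.38 in WT AOM/DSS colons. The WT arrays lay within a narrow band, and every TSP-1-/- array lay below it, replicate 3 by the most. The log2 difference was -0.58 (SE 0.17, 95% interval -0.95 to -0.21, 1.49-fold lower in TSP-1-/-), with an adjusted p of 0.0538 in limma. This was the lowest adjusted p of the 10 genes. The interval ends short of a 2-fold difference. Without TSP-1-/- AOM/DSS replicate 3 the difference was -0.36, with an adjusted p of 0.145 in limma. Over 20 alternatives the difference stayed between -0.70 and -0.36, and the adjusted p between 0.0240 and 0.174. The adjusted p was under 0.05 with each array centred on its median (0.0433), with quantile normalization within each array set (0.0240) and without TSP-1-/- AOM/DSS replicate 2 (0.0409), each in limma, and in none of them did the difference reach 2-fold.

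Vegfb (probe 10465559), a ligand of the receptor encoded by Flt1, had values of 0.01, -0.01 and -0.43 in TSP-1-/- AOM/DSS colons, against 0.10, 0.25 and 0.74 in WT AOM/DSS colons. Replicate 3 was the lowest array of TSP-1-/- and the highest array of WT, and the nearest arrays of the 2 genotypes lay close together. The log2 difference was -0.51 (SE 0.18, 95% interval -0.90 to -0.11, adjusted p = 0.0849 in limma). Leaving out TSP-1-/- AOM/DSS replicate 3 gave -0.36, and leaving out WT AOM/DSS replicate 3 gave -0.32. Vegfa and Vegfb varied together over the 6 AOM/DSS arrays (Pearson r = 0.85 over arrays of both genotypes, a description).

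The other ligands overlapped between the genotypes. Vegfc (probe 10571788), the lymphatic growth factor, measured 0.61, 0.06 and 0.37 in TSP-1-/- AOM/DSS colons, against 0.40, -0.14 and -0.32 in WT AOM/DSS colons. One WT array, replicate 1, lay above 2 of the TSP-1-/- arrays. The difference was 0.37 (SE 0.19, 95% interval -0.05 to 0.79, adjusted p = 0.205 in limma), and 0.58 without WT AOM/DSS replicate 1 (adjusted p = 0.0525 in limma). Pgf (probe 10401607), the placental growth factor that binds the receptor encoded by Flt1, had the smallest SE of the 10 genes. It measured 0.0033, -0.04 and -0.08 in TSP-1-/- AOM/DSS colons, against 0.19, -0.16 and -0.0033 in WT AOM/DSS colons. The difference was -0.05 (SE 0.12), and its 95% interval of -0.32 to 0.22 leaves out a difference of 2-fold in either direction.

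As deposited, the 3 VEGF receptors were higher on every TSP-1-/- AOM/DSS array than on any WT AOM/DSS array. Kdr (probe 10530692), the main signalling receptor for VEGF-A on blood endothelium, had values of 0.27, 0.57 and 1.00 in TSP-1-/- AOM/DSS colons, against 0.22, 0.0036 and -0.28 in WT AOM/DSS colons. The highest array was TSP-1-/- replicate 3, and the gap between the genotypes was narrow, since WT replicate 1 came close to TSP-1-/- replicate 1. The log2 difference was 0.64 (SE 0.43, 95% interval -0.30 to 1.57, adjusted p = 0.311 in limma). The SE of Kdr was the largest of the 10 genes. The fit pools the spread of all 4 groups, and the water arrays of Kdr lay far apart. In a fit of the AOM/DSS groups alone the adjusted p was 0.175, in limma.

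Flt1 (probe 10535807), a VEGF receptor that binds its ligands tightly and signals weakly, measured 0.13, 0.34 and 0.49 in TSP-1-/- AOM/DSS colons, against -0.35, 0.13 and -0.13 in WT AOM/DSS colons. At this rounding TSP-1-/- replicate 1 and WT replicate 2 had the same value, and the difference of 0.43 (SE 0.36, 95% interval -0.34 to 1.21) had an adjusted p of 0.406 in limma. Flt4 (probe 10375578), the VEGF-C receptor of lymphatic endothelium, had values of 0.23, 0.28 and 0.56 in TSP-1-/- AOM/DSS colons, against 0.04, -0.04 and -0.92 in WT AOM/DSS colons. Its lowest value by far was that of WT replicate 3. The log2 difference of 0.66 (SE 0.25, 95% interval 0.13 to 1.20, 1.58-fold, adjusted p = 0.0940 in limma) was 0.36 without that array (adjusted p = 0.311 in limma).

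The non-overlap of Flt1 and Kdr depended on the scale. The AOM/DSS arrays had medians over all probes of 0.04, 0.02 and 0.05 in TSP-1-/- and -0.02, -0.0057 and -0.09 in WT. With each array centred on its own median, Flt1 and Kdr overlapped between the genotypes, whereas Flt4 and Tek stayed higher and Vegfa and Vegfb lower without overlap. The same held after quantile normalization of the 12 arrays and within each set, and Angpt1 was then lower without overlap as well. Under these 3 scalings 13.6% to 15.7% of all probes were higher without overlap, and 14.0% to 14.1% lower. The median difference of all probes, 0.13 as deposited, was 0.05 after centring and 0.02 after either quantile normalization. That of the 10 genes was then between 0.21 and 0.29.

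Tek (probe 10505954), the receptor through which both angiopoietins act, measured 0.26, 0.26 and 0.06 in TSP-1-/- AOM/DSS colons, against -0.19, -0.06 and -0.26 in WT AOM/DSS colons. All TSP-1-/- arrays were above the baseline and all WT arrays below it. TSP-1-/- replicate 3, the highest array for Kdr, Flt1 and Flt4, was the lowest TSP-1-/- array for Tek. The log2 difference was 0.36 (SE 0.20, 95% interval -0.08 to 0.81, adjusted p = 0.234 in limma).

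Angpt2 (probe 10577315), the angiopoietin released by activated endothelium, had values of 0.26, 0.11 and 1.01 in TSP-1-/- AOM/DSS colons, against 0.26, -0.56 and -0.29 in WT AOM/DSS colons. WT replicate 1 lay among the TSP-1-/- arrays, and TSP-1-/- replicate 3 stood well above all others. The difference was 0.66 (SE 0.25, 95% interval 0.11 to 1.20, 1.58-fold, adjusted p = 0.0994 in limma). Leaving out TSP-1-/- AOM/DSS replicate 3 gave 0.38 (adjusted p = 0.315 in limma). Leaving out WT AOM/DSS replicate 1 gave 0.89, below 2-fold, with an adjusted p of 0.0423 in limma. Angpt1 (probe 10428376), the vessel-stabilizing ligand made by perivascular cells, measured 0.08, 0.02 and 0.14 in TSP-1-/- AOM/DSS colons, against 0.20, 0.82 and -0.02 in WT AOM/DSS colons. The TSP-1-/- arrays were close together and lay inside the WT range, and 1 WT array was high. The difference was -0.25 (SE 0.37, 95% interval -1.07 to 0.56, adjusted p = 0.656 in limma), and -0.01 without WT AOM/DSS replicate 2.

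**Figure D2:**
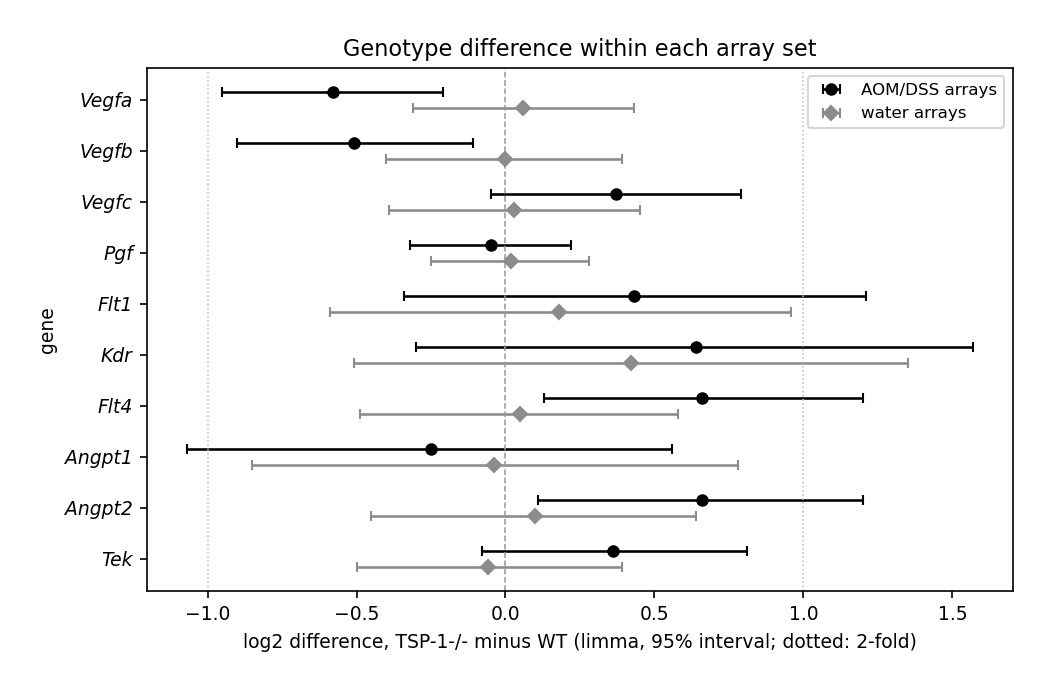
Log2 difference between TSP-1-/- and WT for each of the 10 genes, on the AOM/DSS arrays (black circles) and on the water arrays (grey diamonds), with 95% intervals from limma; dotted lines mark 2-fold. On the AOM/DSS arrays the intervals of Vegfa, Vegfb, Flt4 and Angpt2 leave out 0, and on the water arrays all 10 intervals include it.

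On the water arrays the genotypes overlapped in all 10 genes, against 5.17% of all probes that did not overlap (2.29% higher and 2.88% lower in TSP-1-/-). The differences ran from -0.06 for Tek to 0.42 for Kdr, with an adjusted p of 1 for each in limma. None had an unadjusted p under 0.05, against 0.999% of all probes, and 0 of 28815 probes were called. Vegfa measured -0.12, -0.08 and 0.15 in TSP-1-/- water colons and -0.01, -0.05 and -0.18 in WT water colons. Its difference of 0.06 (95% interval -0.31 to 0.43) leaves out a difference of 2-fold, as did the intervals of the other genes except Kdr (-0.51 to 1.35).

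Flt1 and Kdr varied widely within each genotype on these arrays. Kdr had values of -1.24, -0.44 and 0.40 in TSP-1-/- water colons and -0.69, -1.73 and -0.12 in WT water colons. Flt1 measured -1.25, -0.73 and -0.06 in TSP-1-/- water colons and -1.40, -1.21 and 0.02 in WT water colons. For Flt1, Kdr, Flt4, Tek and Angpt1 replicate 3 was the highest array of both genotypes. Flt4 was -0.42, -0.45 and -0.03 in TSP-1-/- water colons and -0.47, -0.55 and -0.02 in WT water colons. Tek was -0.76, -0.50 and -0.08 in TSP-1-/- water colons and -0.38, -0.77 and -0.02 in WT water colons. The median of 19 blood endothelial markers was also highest in replicate 3, at -0.35, -0.27 and -0.07 in TSP-1-/- water colons and -0.40, -0.59 and -0.11 in WT water colons. Its part in the receptor values was not tested.

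Angpt1 was spread widely over the TSP-1-/- water arrays, with -0.52, -1.55 and 0.35 in TSP-1-/- colons and -0.53, -0.79 and -0.28 in WT colons. Angpt2 did not follow the other vascular genes: it was -0.11, 0.36 and 0.06 in TSP-1-/- water colons and -0.05, 0.05 and 0.02 in WT water colons. The ligands Vegfb, Vegfc and Pgf stayed between -0.32 and 0.16 on all 6 water arrays.

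**Figure D3:**
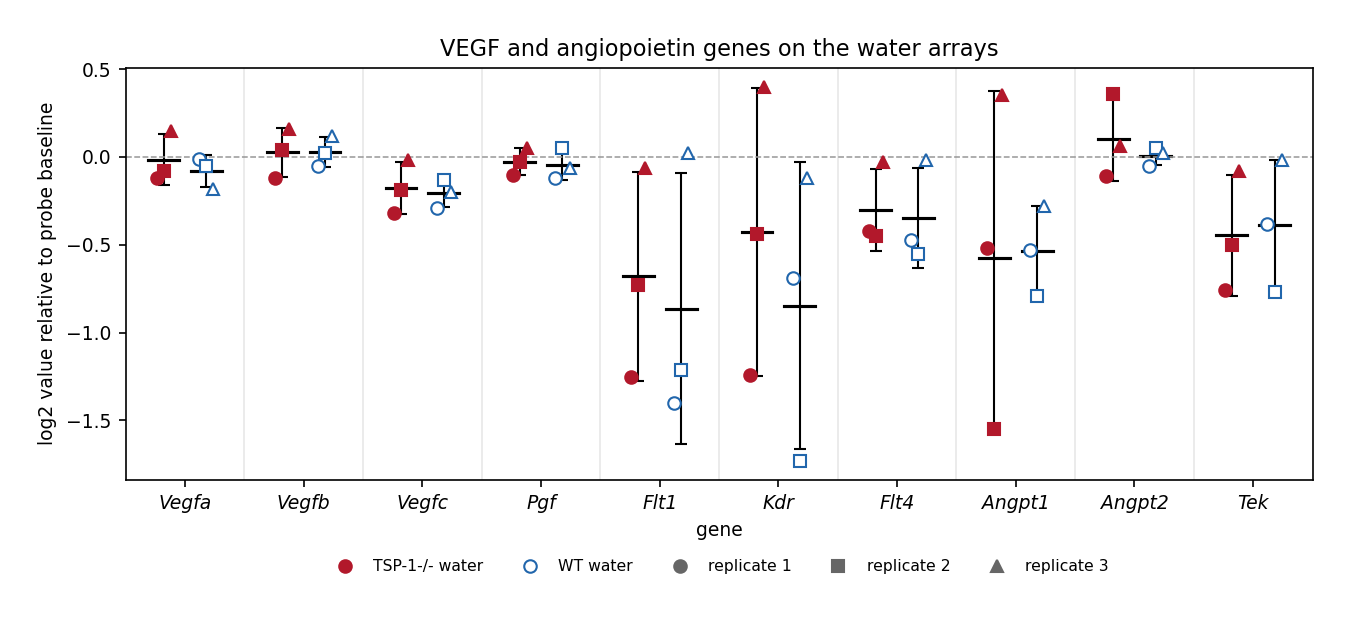
Log2 value relative to the probe's baseline for the 10 genes on the water arrays, with TSP-1-/- in filled red and WT in open blue symbols; the symbol shape gives the replicate number, and bars give the mean and SD of 3 arrays. The genotypes overlapped in every gene, and replicate 3 was the highest array of both genotypes for Flt1, Kdr, Flt4, Angpt1 and Tek.

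The genotype difference on the AOM/DSS arrays was also set against that on the water arrays, in which a shift of baseline per probe cancels. None of the 10 genes was called for this difference of differences, against 0.00694% of all probes (2 of 28815). Vegfa came nearest, at -0.64 (SE 0.24, 95% interval -1.16 to -0.12, adjusted p = 0.270 in limma), followed by Vegfb at -0.51 (SE 0.26, adjusted p = 0.350 in limma). The values of Flt4 and Angpt2 were 0.62 (SE 0.35) and 0.56 (SE 0.35), and those of Kdr and Flt1 were 0.22 (SE 0.60) and 0.25 (SE 0.50). Only Vegfa had an unadjusted p under 0.05 in limma, against 15.4% of all probes. The genotype differences of the 2 array sets were thus not shown to differ for any of the 10 genes.

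Each AOM/DSS array was also set against the zero of the deposited scale. The methods describe it as the 12-sample median, but zero was not the median of these 12 arrays for every probe. For Tek the highest values were -0.06 in WT AOM/DSS, -0.08 in TSP-1-/- water and -0.02 in WT water colons, all below zero. Of the 6 AOM/DSS arrays between 2 (Pgf) and 5 (Kdr and Angpt1) lay above zero. None of the 10 genes thus had all 6 or 0 of 6 arrays above. Among all probes 2.02% had all 6 above and 3.99% had none. For Flt1, Flt4, Angpt2 and Vegfc the 4 arrays above were all 3 of TSP-1-/- and 1 of WT, whereas for Vegfa and Vegfb they were 1 of TSP-1-/- and all 3 of WT.

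The rest of the pathway was read from a list of 32 genes that act with these ligands and receptors, of which 28 had a probe (29 probes). On the AOM/DSS arrays 2 of the 29 probes rose and 0 fell, against 1.73% and 1.05% of all probes. The median log2 difference was 0.14, against 0.13 for all probes. Sema3e (probe 10519747), a secreted semaphorin that repels growing vessels, was higher in TSP-1-/- by 2.11 (SE 0.32, 4.31-fold, adjusted p = 0.00987 in limma). Its endothelial receptor Plxnd1 (probe 10547100) was higher by 1.05 (SE 0.20, 2.08-fold, adjusted p = 0.0184 in limma). Sema3e was called whichever array was left out. In a fit of the AOM/DSS groups alone 6 probes of the array were called, and of the list genes given here as having risen or fallen Cxcr2 alone remained among them, whereas Sema3e had an adjusted p of 0.108 in limma. Plxnd1 lost its call when replicate 3 of either AOM/DSS group was left out (limma adjusted p = 0.0515 for the TSP-1-/- array and 0.0637 for the WT array), and was under 2-fold after centring (0.98), quantile normalization within each set (0.79) and quantile normalization of the 12 arrays (0.64, adjusted p = 0.0754 in limma). With no minimum of fold, 6 of the 29 probes were higher and 1 lower at the adjusted p, against 8.3% of all probes in either direction. The closest relatives of the 10 genes did not pass: Vegfd measured a difference of 0.25 (SE 0.33), Angpt4 0.39 (SE 0.16), the co-receptor Nrp1 0.34 (SE 0.26) and the Tek-related receptor Tie1 0.05 (SE 0.19). These 4 were named for their kinship with the set.

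Among 9 genes of TSP-1 and its angiogenic partners (10 probes), 2 probes rose and 0 fell, against 1.73% and 1.05% of all probes. Thbs2 (probe 10447951), which encodes the related inhibitor thrombospondin-2, was higher in TSP-1-/- AOM/DSS colons by 1.44 (SE 0.31, 2.71-fold, adjusted p = 0.0271 in limma). Fyn (probe 10362596), a kinase in the signal from CD36, was higher by 1.29 (SE 0.32, 2.45-fold, adjusted p = 0.0373 in limma). Both calls were lost when single arrays were left out. Thbs2 was not called without TSP-1-/- replicate 3, WT replicate 2 or WT replicate 3 of the AOM/DSS set (adjusted p = 0.0625, 0.0515 and 0.100 in limma). Fyn was not called in 8 of the 12 fits that left out an array, the highest adjusted p being 0.133 in limma without WT AOM/DSS replicate 3, and its difference was 0.83 without TSP-1-/- AOM/DSS replicate 3. The TSP-1 receptor Cd36, named here for that role, measured -0.89 (SE 0.62, adjusted p = 0.328 in limma). On the water arrays neither list had a call.

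Endothelial markers were read beside the receptors. Of 19 blood endothelial markers 18 had a positive log2 difference between the treated genotypes, and their median was 0.49, against 0.13 for all probes. On the scale as deposited, 13 were higher without overlap (20.2% of all probes) and 1 lower (10.7% of all probes). Non-overlap in the other marker lists was also counted on that scale. Of the 19, 2 rose and 0 fell, against 1.73% and 1.05% of all probes: Sox17 (probe 10352936), a transcription factor of arterial endothelium, by 2.14 (SE 0.44, 4.41-fold, adjusted p = 0.0234 in limma), and Ecscr (probe 10458303), an endothelial surface protein, by 1.28 (SE 0.29, 2.43-fold, adjusted p = 0.0302 in limma). Neither was called without WT replicate 2, WT replicate 3 or TSP-1-/- replicate 3 of the AOM/DSS arrays, with an adjusted p of up to 0.112 in limma for Ecscr and 0.0821 for Sox17, nor after quantile normalization of the 12 arrays (0.316 and 0.0553). Pecam1 (probe 10392221) and Plvap (probe 10579525) encode CD31 and the MECA-32 antigen, the vessel proteins stained in the study. Pecam1 measured 0.32, 0.51 and 1.42 in TSP-1-/- AOM/DSS colons, against -0.20, 0.02 and 0.04 in WT AOM/DSS colons, without overlap (difference 0.80, SE 0.28, adjusted p = 0.0790 in limma). Plvap measured -0.09, 0.09 and 0.30 in TSP-1-/- AOM/DSS colons, against -0.31, -0.21 and 0.36 in WT AOM/DSS colons, with overlap (difference 0.15, SE 0.27).

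The median of the blood endothelial list was 0.25, 0.26 and 0.60 on the TSP-1-/- AOM/DSS arrays, against -0.16, -0.13 and -0.14 on the WT AOM/DSS arrays. As deposited it did not overlap between the genotypes. TSP-1-/- replicate 3 was its highest array, as for Flt1 and Kdr, whereas Tek was lowest there among the TSP-1-/- arrays (0.06). Of 5 measured lymphatic markers 4 had a positive log2 difference, with a list median of 0.48, and 3 were higher without overlap, against 20.2% of all probes. Of the 5, 1 rose and 0 fell, against 1.73% and 1.05% of all probes. Prox1 (probe 10361023), a transcription factor used here as a lymphatic marker, rose by 2.62 (SE 0.40, 6.14-fold, adjusted p = 0.0108 in limma). Which cells of the tissue held Prox1 was not measured. The call of Prox1 held whichever array was left out, and was lost after quantile normalization of the 12 arrays (1.11, adjusted p = 0.186 in limma) and within each set (1.44, adjusted p = 0.0966 in limma). The lymphatic median was 0.21, 0.10 and 0.40 on the TSP-1-/- AOM/DSS arrays, against -0.03, -0.02 and -0.33 on the WT AOM/DSS arrays. It was lowest in WT replicate 3, as were Flt4, Kdr, Tek, Vegfc and Angpt1. The part of endothelial content in the receptor values was not tested.

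**Figure D4:**
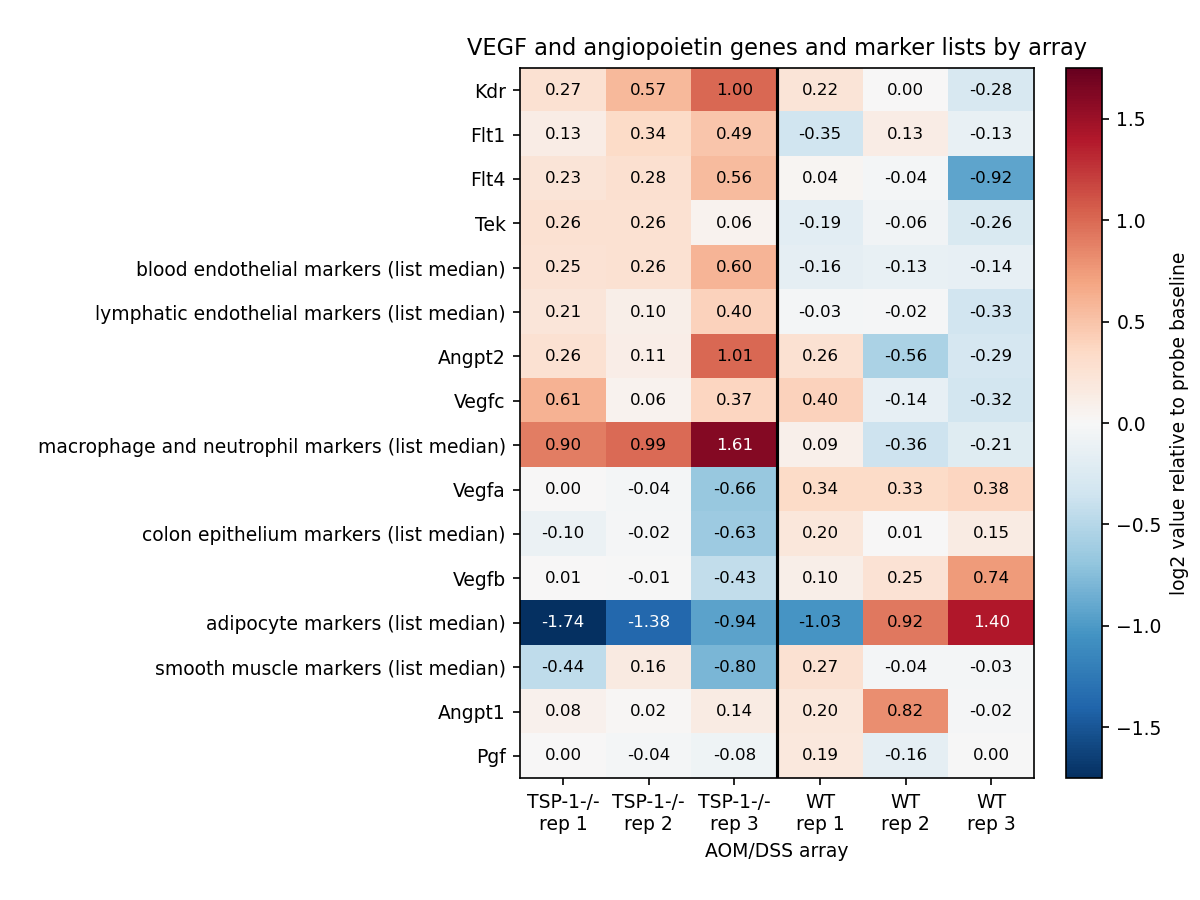
Log2 value relative to the probe's baseline on each AOM/DSS array (columns, TSP-1-/- left of the line, WT right) for the 10 genes and the medians of 6 marker lists (rows), in red above and blue below the baseline. Kdr, Flt1, Flt4, Tek and both endothelial lists were higher on all 3 TSP-1-/- arrays than on all WT arrays on the scale as deposited (not Kdr and Flt1 under other scalings), and Vegfa, Vegfb and the colon epithelium list were lower.

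Markers of other cell types were also compared between the treated genotypes. The background shares were again 1.73% of all probes called higher and 1.05% called lower. The median of 10 colon epithelium markers was -0.10, -0.02 and -0.63 on the TSP-1-/- AOM/DSS arrays, against 0.20, 0.01 and 0.15 on the WT AOM/DSS arrays. It was lowest in TSP-1-/- replicate 3, as were Vegfa, Vegfb and the smooth muscle median (-0.80 on that array). Of the 10, 6 were lower without overlap, against 10.7% of all probes, and 1 fell, Car1 (probe 10497337), a carbonic anhydrase of colonocytes, by a log2 difference of -1.09 (SE 0.29, adjusted p = 0.0445 in limma). Car1 was -0.70 without TSP-1-/- AOM/DSS replicate 3 (adjusted p = 0.107 in limma), and its call was also lost without WT replicate 2 or 3 of that set or any of 5 water arrays (adjusted p = 0.0596 to 0.149 in limma). All 9 macrophage and neutrophil markers were higher without overlap, against 20.2% of all probes, with a median of 0.90, 0.99 and 1.61 on the TSP-1-/- AOM/DSS arrays, against 0.09, -0.36 and -0.21 on the WT AOM/DSS arrays. Of these, 3 rose: Cxcr2, Csf3r and Csf1r, receptors of neutrophils and macrophages, by 4.58, 2.56 and 1.03 (adjusted p = 0.0184, 0.0170 and 0.0492 in limma). Cxcr2 and Csf3r lost their calls when replicate 3 of either AOM/DSS group was left out (limma adjusted p = 0.0536 to 0.0702), and Csf1r kept its call in only 1 of the 12 fits that left out an array (adjusted p of up to 0.145 in limma). On the water arrays all 9 of these markers also had a positive difference, with a median of 0.73, against -0.0018 for all probes. There 2 of the 9 were higher without overlap, against 2.29% of all probes, and 0 were called. The part of these markers in the ligand and receptor values was not tested.

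Adipocyte markers had a median of -1.74, -1.38 and -0.94 on the TSP-1-/- AOM/DSS arrays, against -1.03, 0.92 and 1.40 on the WT AOM/DSS arrays, so that WT replicates 2 and 3 stood above the rest. Of 7 measured markers 2 fell, Cidec and Retn, by log2 differences of -2.23 and -2.04 (adjusted p = 0.0361 and 0.0399 in limma). Cidec overlapped between the genotypes. Both calls were lost without TSP-1-/- replicate 1 or 3 or WT replicate 2 or 3 of the AOM/DSS arrays, with an adjusted p of up to 0.149 in limma. Over the reported fit and 20 alternatives together, the limma adjusted p was under 0.05 in 11 for Cidec and in 8 for Retn. Pancreatic enzymes had a median of -0.06, 0.01 and 6.36 on the TSP-1-/- AOM/DSS arrays, against -0.10, -0.18 and -0.25 on the WT AOM/DSS arrays. In this median only TSP-1-/- replicate 3 was high, the array with the lowest Vegfa and Vegfb and the highest Kdr, Flt1, Flt4 and Angpt2. Of 11 measured enzymes 1 rose, Pnliprp1, by 4.45 (adjusted p = 0.0363 in limma). Without TSP-1-/- AOM/DSS replicate 3 it measured 3.51 (adjusted p = 0.111), and its call was also lost without TSP-1-/- replicate 1 or WT replicate 2 or 3 of that set (adjusted p of up to 0.133 in limma). Over the reported fit and 20 alternatives together, the limma adjusted p of Pnliprp1 was under 0.05 in 9. Values without TSP-1-/- AOM/DSS replicate 3 stand above beside Vegfa, Vegfb and Angpt2. The difference of Flt4 without it was 0.56, that of Kdr 0.44 and that of Flt1 0.35. The 8 smooth muscle markers had 0 calls and a median difference of -0.41, and 17 probes of 8 reference genes had 0 calls and a median difference of -0.05.

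**Figure D5:**
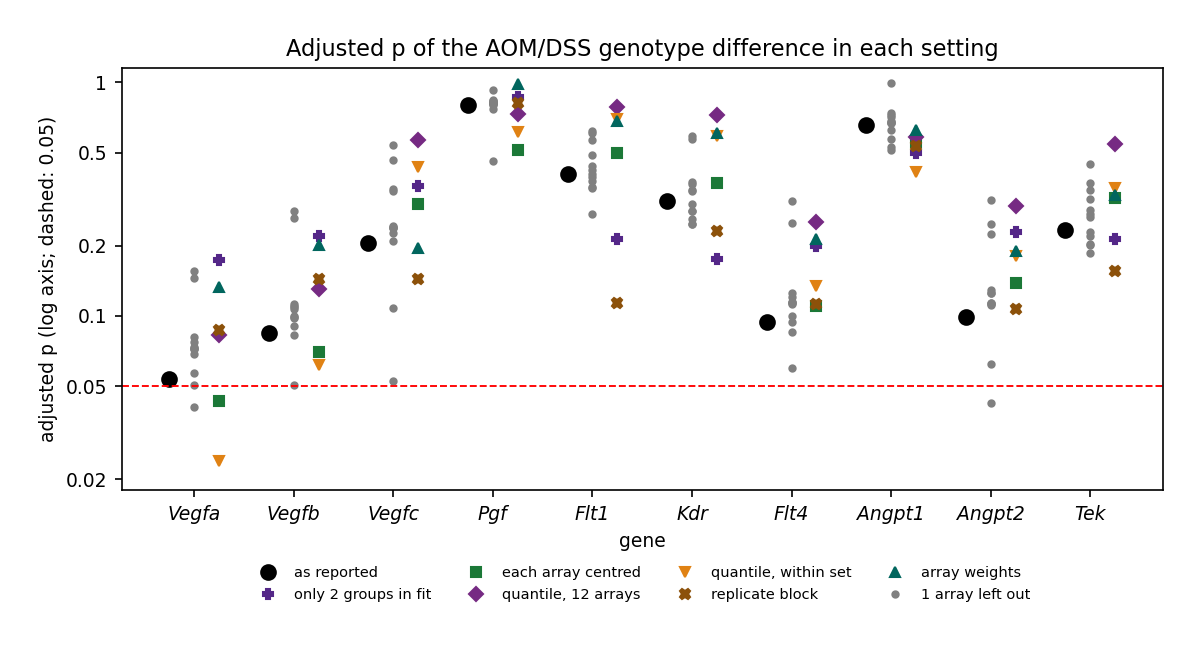
Adjusted p of the TSP-1-/- against WT difference on the AOM/DSS arrays for the 10 genes (log axis, limma), as reported (black) and with 1 array left out (grey). Colours show the other scalings, the fit of 2 groups, the replicate block and array weights. Robust moderation and the filter on variable probes are not drawn. The dashed line marks 0.05. Vegfa fell below the line in 3 alternatives and Angpt2 in 1, and the other 8 genes in none.

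The 10 genes were last set beside one another and beside all 21779 other probes with 1 symbol, by Pearson correlation over the 12 arrays after the mean of each array set was removed. The arrays share genotype and tissue piece, so the values are descriptions. Flt1, Kdr and Tek varied together, with r = 0.80 between Flt1 and Kdr, 0.80 between Flt1 and Tek and 0.81 between Kdr and Tek. Flt4 followed them less closely, at 0.59 with Flt1, 0.71 with Kdr and 0.67 with Tek. By closeness to Flt4 these genes ranked 6324, 3935 and 4752 among all 21779 probes. Between Vegfa and Vegfb r was 0.81, with 0.85 on the AOM/DSS arrays alone and 0.39 on the water arrays alone. Vegfa and Angpt2 had r = -0.79. They ran opposite on the AOM/DSS arrays (-0.86) and not on the water arrays (0.02). None of these partners was among the 3 closest probes. Those of Vegfa were Dst (r = 0.972), Nedd4l (0.967) and Tgoln1 (0.964), and those of Vegfb were Galc (0.964), Oma1 (0.962) and Agap1 (0.960). For Vegfc they were Nvl (0.958), Pop1 (0.943) and Hmcn1 (0.937), and for Pgf Cnot8 (0.893), Hnrnpl (0.891) and Dhrs13 (0.881). Flt1 was closest to Lamb1 (0.951), which encodes a laminin chain of basement membranes, then to Fam216b (0.937) and Tmem158 (0.927). Kdr was closest to Pax2 (0.967), Pnck (0.967) and Zc3h12b (0.928), and Flt4 to 2 probes of Uba1y (0.988 each) and to Fer1l5 (0.987). Angpt1 was closest to 2 probes of the mitochondrial gene ND3 (0.927 and 0.915) and to Otud7b (0.925), Angpt2 to Plcg2 (0.965), Trib2 (0.964) and N4bp2 (0.948), and Tek to Eva1b (0.960), Apoa4 (0.957) and Lmtk3 (0.937).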

How the data were processed

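Colon RNA of 12 mice was hybridized to Affymetrix MoGene 1.0 ST arrays. By the methods, signals were summarised with PLIER16, quantile normalized and set to the 12-sample median of each probe. The zero of the deposited log2 values was not that median for every probe. The deposited values were used without further transformation. On the AOM/DSS arrays, means that the authors tabulated for 376 of 377 genes each matched 1 probe within 0.0001, and on the water arrays for 0. Of 28853 probes, 21789 have 1 gene symbol, 1621 several and 5443 none, and 28815 have values on all arrays. Relative values hold no signal over background, so no filter on dim probes was possible, and 3 arrays per group limit the precision.

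Genotypes were compared with limma 3.58.1 (R 4.3.3) with 1 mean per group over the 12 arrays, moderated variances and Benjamini-Hochberg adjustment over all probes. A call needed an adjusted p under 0.05 and a 2-fold difference, as in the study's methods, whose test is an analysis of variance. The labels call the arrays biological replicates. An exact permutation test of 3 against 3 arrays cannot give a p below 0.1, which the 6 genes without overlap reached. Alternatives were other scalings, a fit of 2 groups, a replicate block, array weights, robust moderation, a filter on variable probes and leaving out each array. The script was tested on simulated data. Genes named are the 10 genes, up to 4 called genes of each list, Thbs1, Pecam1, Plvap and the 3 probes closest to each of the 10. Vegfd, Angpt4, Nrp1, Tie1 and Cd36 were added after their values were seen, for kinship or role. The genes and lists were chosen with earlier results of these data known. Tables were made in Python 3.11.15 with scipy 1.17.1, numpy 2.4.6 and pandas 2.3.3.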

Additional observations from a re-analysis of the deposited data

How the results depend on the processing

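On the AOM/DSS arrays 0 of the 10 genes were called under every alternative run, and the direction held in all of them except for Pgf when an array was left out (-0.13 to 0.04). The number of probes called, 802 as reported (62.3% higher), was 6 in a fit of the 2 groups alone, 183 after quantile normalization of the 12 arrays (42.6% higher), 359 with array weights, 2396 with no fold minimum, and 104 to 1402 with an array left out. It was 810 after centring (48.9% higher) and 650 after quantile normalization within each set (39.9% higher). The fit of 2 groups uses 6 of the 12 arrays.

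Pairing by replicate number was read from deviations, each array's values minus the mean of its own group for each probe. On the AOM/DSS arrays replicate numbers did not pair the samples. The deviations of same-numbered TSP-1-/- and WT arrays correlated at 0.0262, -0.0425 and -0.0247. On the water arrays the deviations of same-numbered arrays correlated at 0.0931, 0.281 and 0.402, and the highest correlation for different numbers was 0.183. With the replicate block 593 probes were called on the AOM/DSS arrays, 0 on the water arrays and 2 for the difference of differences, Vegfa had an adjusted p of 0.0869 in limma, and none of the 10 genes was called. By these deviations every TSP-1-/- water array correlated best with the WT array of its own number except replicate 1.

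On the water arrays 0 probes were called, and 0 to 1 with an array left out. Directions there turned for Vegfa with array weights (-0.00057), for Vegfb after centring (0.0012), quantile normalization of 12 arrays (0.02) and within sets (0.01), for Flt1 (-0.08 and -0.07 in these 2) and for Angpt1 (0.14 and 0.05). With an array left out the differences ran from -0.02 to 0.11 for Vegfa, -0.07 to 0.07 for Vegfb, -0.05 to 0.10 for Vegfc, -0.02 to 0.06 for Pgf, -0.13 to 0.63 for Flt1, -0.02 to 0.83 for Kdr, -0.09 to 0.21 for Flt4, -0.50 to 0.45 for Angpt1, -0.03 to 0.20 for Angpt2 and -0.25 to 0.13 for Tek. The 2 calls of the difference of differences were 18 after quantile normalization of 12 arrays, 20 within sets, 76 with array weights, 4 with robust moderation, 7 with the filter on variable probes, and 1 to 289 with an array left out. There Pgf ran from -0.15 to 0.03, Flt1 from -0.19 to 0.56, Kdr from -0.19 to 0.66 and Angpt1 from -0.70 to 0.24. The causes were not tested.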

Other observations

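Other gene groups linked to vessels were also compared between the treated genotypes. Of 17 measured genes active in sprouting vessels, 1 rose and 0 fell in TSP-1-/- AOM/DSS colons, against 1.73% and 1.05% of all probes. Their median log2 difference was 0.40. The gene that rose was Cxcr4 (probe 10357472), the receptor of the chemokine CXCL12, by 1.96 (SE 0.32, 3.90-fold, adjusted p = 0.0142 in limma). When WT AOM/DSS replicate 3 was left out, the limma adjusted p of Cxcr4 was 0.0629. Of 8 pericyte markers 0 were called, against 2.78% of all probes, with a median of 0.13, equal to that of all probes.

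Vegfa is a textbook target of the hypoxia-inducible factors. Of 21 probes of 18 genes that regulate or respond to these factors, 0 rose and 1 fell, against 1.73% and 1.05% of all probes. Their median was 0.05. Ndrg1 (probe 10429140), a stress-responsive gene of this list, was lower in TSP-1-/- AOM/DSS colons by a log2 difference of -1.36 (SE 0.31, adjusted p = 0.0292 in limma), and lost its call without TSP-1-/- replicate 1, TSP-1-/- replicate 3, WT replicate 2 or WT replicate 3 of that set (adjusted p of up to 0.110 in limma). On the water arrays none of these 3 lists had a call.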
